A study of Mus musculus with 8 samples.

Results

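AP-1 is a family of dimeric transcription factors, and 10 genes that encode its FOS, JUN and BATF subunits and the related repressor JDP2 were followed here in macrophages from mouse breast tumours. The genes were Fos, Fosb, Fosl1, Fosl2, Jun, Junb, Jund, Batf, Batf3 and Jdp2, out of 32665 genes or unnamed transcripts on the array. They were chosen as every probe that is not a control and whose accession maps to one of these genes, which gave 12 probes, with 2 each for Fosl2 and Junb. The tumours grew in the mammary gland of C57BL/6 mice for about 21 days after PyMT breast cancer cells, which carry the polyoma middle T oncogene, were implanted. Host mice were either wild type (WT) or knockouts (KO) of ATF3, a transcription factor induced by stress, while the implanted cancer cells were of the same kind in both. Cells carrying both F4/80, a surface marker of mouse macrophages and the product of Adgre1, and the leukocyte protein CD45 were sorted from the digested tumours. There were 4 samples of each genotype, numbered 1 to 4, each on its own 1-colour array. Separate mice are not named for the samples, and p-values therefore cover only the spread between these samples, part of which may be technical. The labels call the mice themselves ATF3 KO and restrict the deletion to no cell type.

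FOS and BATF proteins cannot form stable dimers with themselves and bind DNA mainly as partners of a JUN protein, whereas JUN proteins can also pair with each other. ATF3, whose gene is the one targeted in the KO hosts, belongs to the same basic leucine zipper class and pairs with JUN proteins. Fos, Fosb, Jun and Junb are immediate early genes, induced within minutes of a stimulus without new protein synthesis. The kinases ERK and JNK act upstream of these genes. BATF and BATF3 join JUN proteins and interferon regulatory factors on composite sites, and BATF3 is known for its part in the development of cross-presenting dendritic cells.

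RefSeq promoter sequence was available for 9 of the 10 genes. For Jun, Fos and Batf3, whose closest genes in level are also given below, the sequences are shown. Each is the 250 bases before the transcription start, read 5′ to 3′ on the gene's strand in build GRCm38.p6. Capitals mark matches to TGANTCA, the usual AP-1 site, TGACNTCA, the longer site also bound by ATF and CREB dimers, or TGACG, the core of a cyclic AMP response element, searched on both strands with overlaps allowed.
Jun, chr4:95052223-95052472, minus strand: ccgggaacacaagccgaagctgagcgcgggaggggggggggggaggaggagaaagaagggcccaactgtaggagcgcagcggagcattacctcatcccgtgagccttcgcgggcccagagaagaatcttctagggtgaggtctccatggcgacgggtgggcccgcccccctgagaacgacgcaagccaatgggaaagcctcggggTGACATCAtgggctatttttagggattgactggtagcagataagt
Fos, chr12:85473640-85473889, plus strand: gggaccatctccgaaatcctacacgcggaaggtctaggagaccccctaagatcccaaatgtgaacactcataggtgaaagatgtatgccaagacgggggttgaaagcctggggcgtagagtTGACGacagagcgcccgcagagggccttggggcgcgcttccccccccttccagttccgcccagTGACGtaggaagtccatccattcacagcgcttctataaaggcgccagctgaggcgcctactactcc
Batf3, chr1:191098164-191098413, plus strand: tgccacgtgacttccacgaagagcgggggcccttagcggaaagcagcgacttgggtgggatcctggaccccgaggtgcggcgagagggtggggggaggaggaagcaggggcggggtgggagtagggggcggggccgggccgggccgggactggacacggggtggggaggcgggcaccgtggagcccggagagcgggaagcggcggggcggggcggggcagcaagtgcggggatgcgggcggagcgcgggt
The Jun window held TGACATCA, starting 45 bases before the start site, and TGACNTCA occurred in 7.49% of 32851 windows of this length. TGACG lay 129 and 66 bases before the start of Fos and 60, 106 and 98 bases before those of Fosb, Junb and Batf, and 17.8% of all windows held it. Among 3 Jdp2 windows, 1 held it. The Batf3 window matched none of the 3 motifs, and no member window held TGANTCA, which 6.75% of all windows did. These matches describe letters in a short window and were not tested as binding sites.

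Markers of macrophages and of other cell types were both measured in the sorted cells. Of the 15 macrophage markers, 14 were tested, and the sort marker genes measured 4.14 ± 0.60 in WT and 4.07 ± 0.54 in KO for Adgre1 and 4.52 ± 0.54 and 4.42 ± 0.55 for Ptprc, which encodes CD45 (SD, n = 4 each). These values, like all levels here, are log2 of the processed signal relative to the 75th percentile of the same array, which ran from 619 to 926 intensity units. Of the 13 tumour epithelial markers 12 were tested, among them the keratin genes Krt8, at 3.64 ± 1.46 and 3.52 ± 1.50, and Krt18, at 3.92 ± 1.27 and 3.99 ± 1.19 (SD, n = 4 each). Their mean level ran from −0.36 to 2.45 over the WT samples and from −0.29 to 2.83 over the KO samples. Such bulk values cannot tell fewer cells of a type from less RNA per cell. Slide 1 carried the samples numbered 1 and 2 of both genotypes, and slide 2 the rest. Atf3, read by 1 probe, stood at 4.92, 4.99, 4.79 and 4.51 across WT samples 1 to 4, against 5.51, 4.86, 4.96 and 4.88 across KO samples 1 to 4. The position of that probe relative to the deletion is unknown here, so Atf3 checks no label, and WT and KO in the text below mean samples labelled so.

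None of the 10 members passed the test between genotypes. With limma, 0 of 20851 genes had an adjusted p under 0.05 (0%), and 0 of the 10 members did. Without adjustment, 3.36% of the genes tested (700) and 0 members had a p under 0.05, 2.24% of the genes being lower in KO, and the smallest member p was 0.112, for Batf3. WT and KO values were fully apart for 0 members, against 2.14% of all genes (1.37% with KO below WT). The log2 difference, KO minus WT, was negative for 8 members and positive for 2, beside 51.5% negative over all genes, and its median was −0.065 over the members and −0.0089 over all genes. The balance of signs depended on the processing. After normexp background correction of the median spot signal 3 members were negative, beside 60.5% of all genes, whose median was −0.13. Leaving out the scaling between arrays adds 0.17 to the difference of every gene, which left 2 members and 27.3% of all genes negative, with a median of 0.16 over all genes. For 8 of the 10 members the 95% interval of the difference lay within a 2-fold change either way. The exceptions were Fosl1 and Batf3. The share of all genes with such an interval was not counted. Over all genes the median distance from the difference to either end of its interval was 0.74 log2 units.

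**Figure D1:**
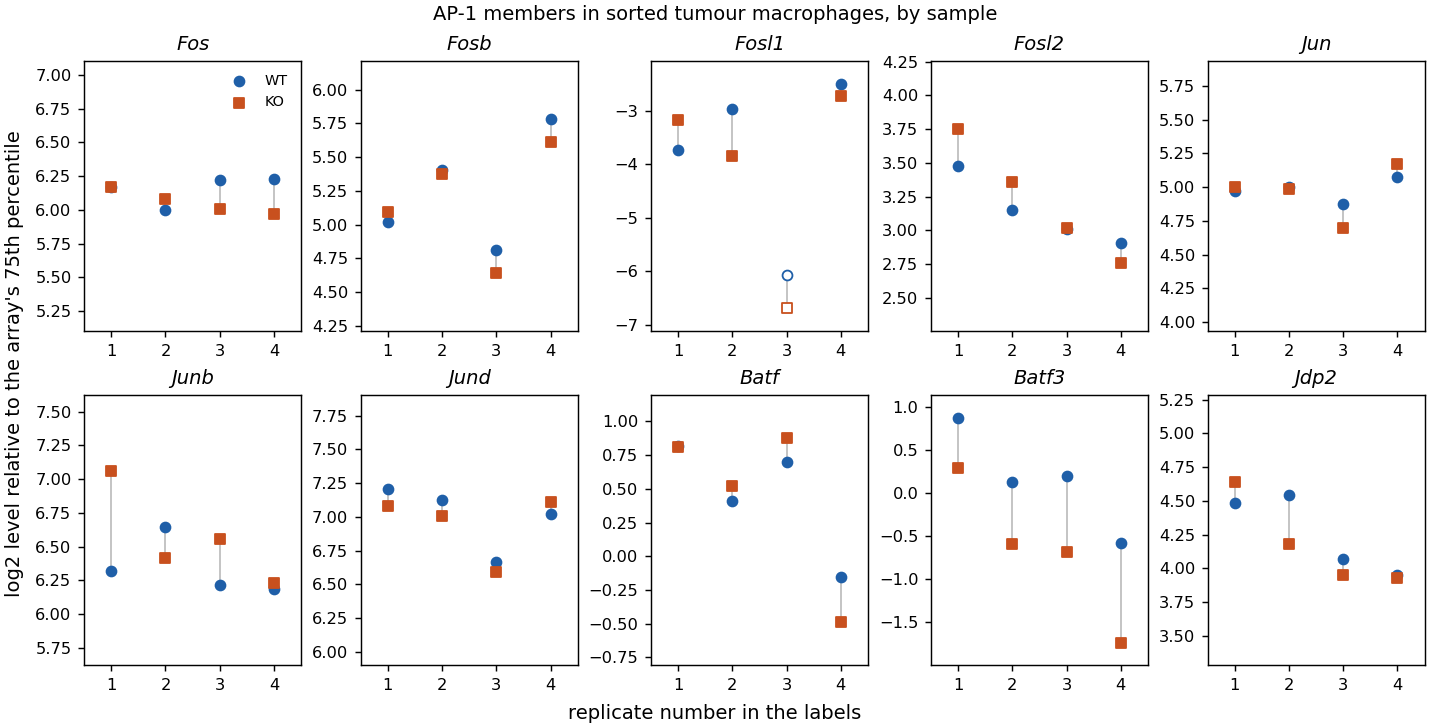
Log2 level of each member relative to the 75th percentile of its array (y axis, each panel with its own range of at least 2 log2 units) against the replicate number in the labels (x axis), for WT (circles) and KO (squares), with a grey line joining samples of the same number. Open symbols are not well above background. The KO sample lies below the WT sample of its number in 4 of 4 cases for Batf3, and Fosl1 is not well above background in either sample numbered 3.

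Fos, whose protein is the classical partner of JUN, was the steadiest member. Fos stood at 6.17, 6.00, 6.22 and 6.23 across WT samples 1 to 4, against 6.17, 6.08, 6.00 and 5.97 across KO samples 1 to 4. The groups overlapped, and the SD over all 8 samples, 0.11, was lower than that of nearly all genes, at percentile 1.46. The difference was −0.098, with a standard error of 0.15 and a 95% interval from −0.44 to 0.24 (limma adjusted p = 0.9999). Its processed signal, 42203 to 62732 intensity units, was well above background on all 8 arrays and not saturated.

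Fosb encodes a FOS protein that also exists as a stable short form, which this probe was not used to separate. Fosb stood at 5.02, 5.40, 4.81 and 5.78 across WT samples 1 to 4, against 5.09, 5.37, 4.64 and 5.61 across KO samples 1 to 4. Samples numbered 4 were highest and those numbered 3 lowest in both genotypes, and the groups overlapped. The difference was −0.073 with a standard error of 0.29 (limma adjusted p = 0.9999). Differences between numbers took 97.1% of the sum of squares of Fosb over the 8 samples and genotype took 0.983%.

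Fosl1 encodes FRA-1, a FOS protein associated with invasive epithelial and mesenchymal cells, and lay near background on part of the arrays. Fosl1 stood at −3.73, −2.96, −6.08 and −2.49 across WT samples 1 to 4, against −3.17, −3.84, −6.70 and −2.73 across KO samples 1 to 4. The samples numbered 3 were not well above background in either genotype, and the processed signal ran from 7.92 to 140 intensity units. The difference of −0.30 had a standard error of 1.05 and an interval from −2.74 to 2.14 (limma adjusted p = 0.9999), the widest of the 10. Without both samples numbered 3 it was −0.19.

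Fosl2 encodes FRA-2, a FOS protein that rises later than FOS after a stimulus. By its brighter probe, Fosl2 stood at 3.48, 3.15, 3.01 and 2.91 across WT samples 1 to 4, against 3.75, 3.36, 3.02 and 2.76 across KO samples 1 to 4. The groups overlapped, and the difference was 0.086 with a standard error of 0.25 (limma adjusted p = 0.9999). The second probe gave 0.23 with a standard error of 0.29 in the fit over probes. The sign of the first was negative on slide 2 alone (−0.067) and without KO sample 1 (−0.089).

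Jun, the founding member of the family and a partner of every other subunit, did not pass the test either. Jun stood at 4.97, 4.998, 4.87 and 5.08 across WT samples 1 to 4, against 5.0002, 4.99, 4.69 and 5.17 across KO samples 1 to 4. The groups overlapped, and the KO samples held both the lowest and the highest value. The difference was −0.014 with a standard error of 0.16 and an interval from −0.39 to 0.36 (limma adjusted p = 0.9999).

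Junb, whose protein often opposes JUN and is abundant in activated myeloid cells, had the largest positive difference of the 10. Junb stood at 6.32, 6.65, 6.21 and 6.18 across WT samples 1 to 4, against 7.06, 6.41, 6.55 and 6.23 across KO samples 1 to 4. KO sample 1 was the highest of all 8, and the other KO samples lay within the WT range. The difference was 0.22 with a standard error of 0.22 (limma adjusted p = 0.9999), and 0.058 without KO sample 1. The second probe measured 4.46, 4.79, 4.34 and 4.46 in WT and 5.30, 4.70, 4.83 and 4.71 in KO samples 1 to 4. There WT sample 2 lay among the KO samples, and the difference was 0.37 with a standard error of 0.20 (limma adjusted p = 0.9999 in the fit over probes; two-sided exact permutation p = 0.0857). Before scaling, all 4 KO signals of the second probe, 20558 to 25135 intensity units, exceeded all 4 WT signals, 13587 to 18298 (two-sided exact permutation p = 0.0286, and no smaller one is possible with groups of 4). Unscaled signals keep each array's brightness, which shifts every gene, and the unscaled Atf3 probe reached the same exact p of 0.0286. Without scaling only 27.3% of all genes had a negative difference. The share of all genes or probes fully apart before scaling was not counted, so this separation has no background to be read against.

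Jund encodes the JUN protein that is expressed without stimulation in most cells. Jund stood at 7.21, 7.12, 6.66 and 7.02 across WT samples 1 to 4, against 7.08, 7.01, 6.59 and 7.11 across KO samples 1 to 4. The samples numbered 3 were lowest in both genotypes, and the difference was −0.057 with a standard error of 0.20 (limma adjusted p = 0.9999).

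Batf3, which encodes a small BATF protein made of little more than the DNA-binding and zipper region, showed the largest difference of the members. Batf3 stood at 0.88, 0.13, 0.20 and −0.58 across WT samples 1 to 4, against 0.29, −0.59, −0.68 and −1.73 across KO samples 1 to 4. In intensity units the signals were 1138, 721, 839 and 526 in WT and 780, 614, 512 and 236 in KO, all well above background. The groups overlapped, because KO sample 1 exceeded 3 of the WT samples, but within each number the KO sample was lower, by differences of −0.59, −0.72, −0.88 and −1.15. A lower KO sample in 4 of 4 numbers was seen in 9.71% of all genes. The group means were 0.16 ± 0.60 in WT and −0.68 ± 0.83 in KO (SD, n = 4 each). KO minus WT thus came to −0.83 in log2 units (standard error 0.47, 95% interval −1.91 to 0.24). This did not pass (limma p = 0.112, adjusted p = 0.9999, and two-sided exact permutation p = 0.20). When same-numbered samples were blocked, the limma p was 0.0027 and the adjusted p 0.634, so it did not pass there either. Within slide 1 the difference was −0.65 and within slide 2 −1.02. It was −0.48 without KO sample 4, −0.59 without WT sample 1 and −1.16 without KO sample 1.

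Batf3 is a defining factor of type 1 conventional dendritic cells, so the markers of these cells are given beside it. Of 10 such markers 6 were tested, 2 with a positive and 4 with a negative difference, and their median difference was −0.14. Their mean level ran from −0.77 to 0.13 in WT and from −0.65 to 0.092 in KO. The chemokine receptor gene Xcr1, which these cells carry, differed by −0.32 with a standard error of 0.28, and the adhesion gene Cadm1 by −0.29 with one of 0.18 (limma adjusted p = 0.9999 for each). Clec9a, Zbtb46, Ly75 and Wdfy4 were not tested. Over the 8 samples the level of Batf3 correlated with this marker mean (Pearson r = 0.80, exact permutation p = 0.0165, adjusted over 80 relations 0.0878; Spearman rho = 0.76, exact p = 0.0368, adjusted 0.155), with r = 0.85 without WT samples 1 and 4. This p, like every exact p of a correlation here, treats the 8 samples as exchangeable although same-numbered samples resemble each other, and is too small. Even so, the relation of Batf3 did not pass after adjustment. Jdp2 and Fosl2 gave a higher r with the same marker mean, at 0.94 and 0.83. The part of such cells in the Batf3 difference was not tested.

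Batf, the close relative of Batf3 that is induced in activated lymphocytes and myeloid cells, gave a difference close to 0, which was not tested against that of Batf3. Batf stood at 0.82, 0.41, 0.70 and −0.15 across WT samples 1 to 4, against 0.81, 0.52, 0.88 and −0.49 across KO samples 1 to 4. The samples numbered 4 were lowest in both genotypes. The difference was −0.013 with a standard error of 0.36 (limma adjusted p = 0.9999). The factors that bind with BATF proteins differed by 0.18 for Irf8 and 0.21 for Irf4, with standard errors of 0.28 and 0.45. Jdp2, which encodes a repressor closely related to ATF3, stood at 4.49, 4.54, 4.07 and 3.95 across WT samples 1 to 4, against 4.64, 4.18, 3.95 and 3.93 across KO samples 1 to 4. Its groups overlapped, with a difference of −0.087 and a standard error of 0.23 (limma adjusted p = 0.9999).

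**Figure D2:**
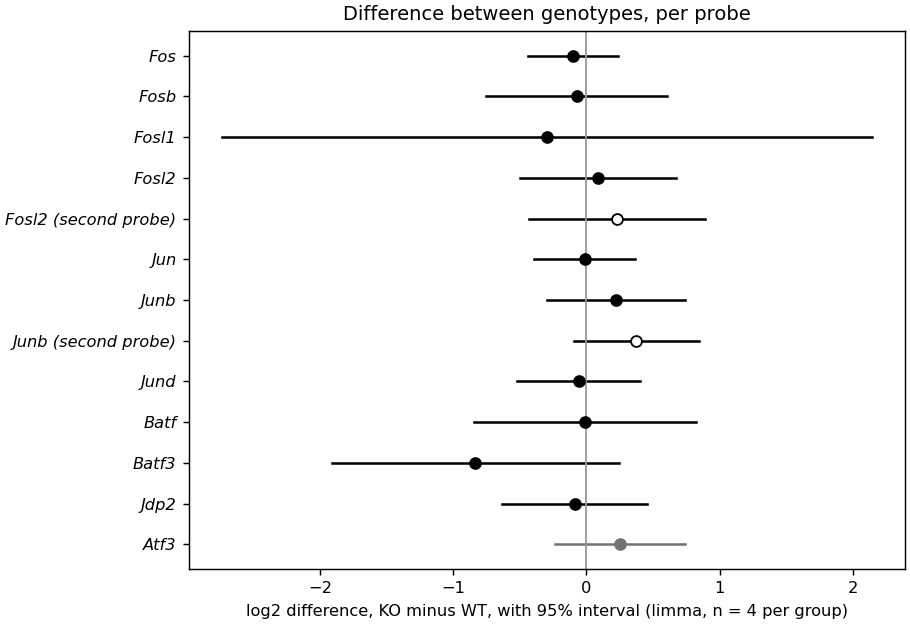
Log2 difference, KO minus WT, of each member and of Atf3 (grey) with its 95% interval from limma, 4 samples per group. Filled points stand for the gene and open points are second probes from the fit over probes. All intervals cross 0, and the widest belongs to Fosl1 (−2.74 to 2.14).

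**Figure D3:**
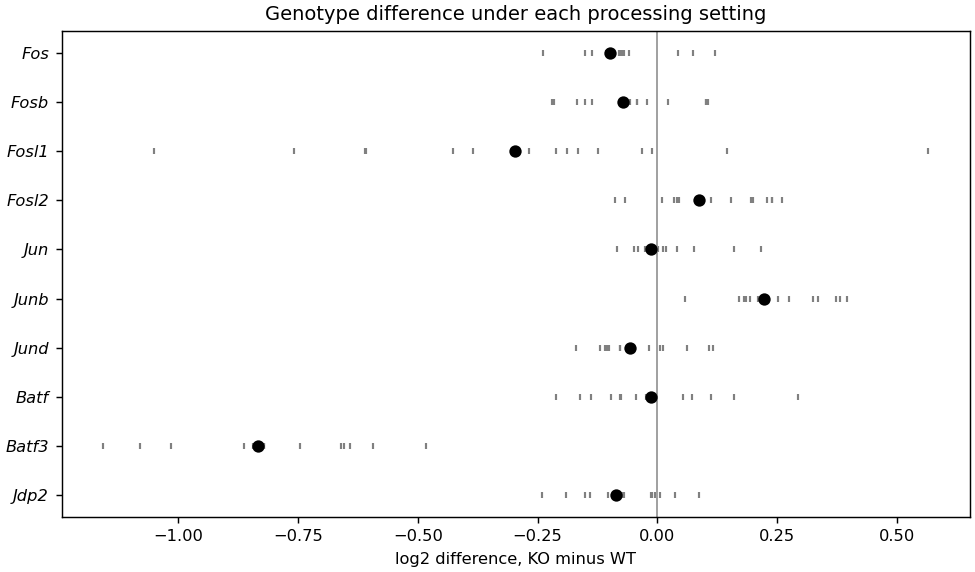
Log2 difference of each member as reported (black points) and under each alternative processing or left-out sample (grey ticks). Batf3 stays negative, between −1.16 and −0.48, and Junb positive, between 0.058 and 0.40, while every other member has values on both sides of 0.

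Other genes of the pathway did not pass between genotypes either, with 0 called in each list. Among kinases and factors upstream of AP-1, 16 of 19 were tested, 12 with a negative and 4 with a positive difference and a median of −0.066. The smallest p there belonged to Creb1, a factor that binds the Fos promoter, at −0.61 with a standard error of 0.27, and to the p38 kinase activator Map2k6, at 0.44 with one of 0.23. Feedback inhibitors of MAP kinases had 7 positive and 3 negative of 10 tested, with a median of 0.14. Immediate early genes outside AP-1 had 12 negative and 5 positive of 17 tested, a median of −0.060, and Klf4 at −0.22 with a standard error of 0.18. In that list Klf2 had all KO values below all WT values, at 3.52 ± 0.070 in WT and 3.37 ± 0.042 in KO (SD, n = 4 each). Groups fully apart with KO below WT were seen in 1.37% of all genes. The Klf2 difference of −0.15 had a limma p of 0.314 and an adjusted p of 0.9999. Known AP-1 targets had 11 negative and 8 positive of 19 tested and a median of −0.12, with the urokinase gene Plau at −0.59 and the cytokine gene Il6 at 0.42, with standard errors of 0.36 and 0.29. Other partners of the basic leucine zipper class had 8 negative and 5 positive of 13 tested and a median of −0.041.

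Replicate numbers, which have more degrees of freedom than genotype, took more of the variation than genotype for 9 members. Fos was the exception at 22.2% and 24.7%. For Junb the shares were 41.5% and 16.2%, and the number did not pass the limma F test (adjusted p = 0.577). The number took a median of 88.5% of a member's sum of squares over the 8 samples, where 3 of 7 degrees of freedom lie, against 66.3% over all genes. Genotype took 1.92% and 4.95%. In a limma F test of the number, with genotype in the fit, Fosl1 (adjusted p = 0.0328) and Batf3 (adjusted p = 0.0449) passed, 2 of 10 members, beside 7.25% of all genes. Batf (0.070) and Fosb (0.0761) did not. Leaving out any 1 of the 8 samples, which leaves a number with 1 sample, reduced the members called to 0. For Fosl1 the mean was −6.39 in number 3, where neither sample was well above background. The means of numbers 1, 2 and 4 were −3.45, −3.40 and −2.61. For Batf3 the means ran from −1.16 in number 4 to 0.58 in number 1. What the number shares is not stated in the labels.

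Among the members, Fosb, Fosl1 and Jun went together over the samples. Of 45 pairs of members, 3 had an exact permutation p of Pearson r that passed after adjustment over the 45, and all 3 lay among these genes. Fosb and Jun correlated at r = 0.88 (exact p = 0.00186, adjusted 0.0279; rho = 0.90, exact p = 0.00456, adjusted 0.0411), with 0.87 without KO sample 3 and WT sample 4. Fosb and Fosl1 also gave r = 0.88 (exact p = 0.00179, adjusted 0.0279; rho = 0.93, exact p = 0.00223, adjusted 0.0411), with 0.78 without the same samples. Fosl1 and Jun gave r = 0.91 (exact p = 6.94e-04, adjusted 0.0279; rho = 0.93, exact p = 0.00223, adjusted 0.0411), with 0.71 without both samples numbered 3. Fosl1 was not well above background in either sample numbered 3, and its 0.78 with Fosb still includes WT sample 3. As above, p-values over these 8 samples are too small.

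Batf ran opposite to Fosb, and Fosl2 ran with Jdp2, by rank only. Fosb and Batf gave r = −0.85 (exact p = 0.00513, adjusted 0.0578; rho = −0.90, exact p = 0.00456, adjusted 0.0411), with −0.80 without KO sample 3 and WT sample 4. Fosl2 and Jdp2 gave r = 0.84 (exact p = 0.0107, adjusted 0.096; rho = 0.90, exact p = 0.00456, adjusted 0.0411), with 0.61 without both samples numbered 1. Fosl1 and Jund correlated at 0.90, but that relation rested on the samples numbered 3 and was −0.22 without them (exact p with all 8 = 0.0210, adjusted 0.118; rho = 0.60, exact p = 0.132, adjusted 0.458). No pair with Fos passed, its r lying between −0.14 and 0.55. Without KO sample 4 and WT sample 2 its r ran from −0.48 with Batf to 0.69 with Jun. Fos varied little over the samples, which limits what these values show.

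**Figure D4:**
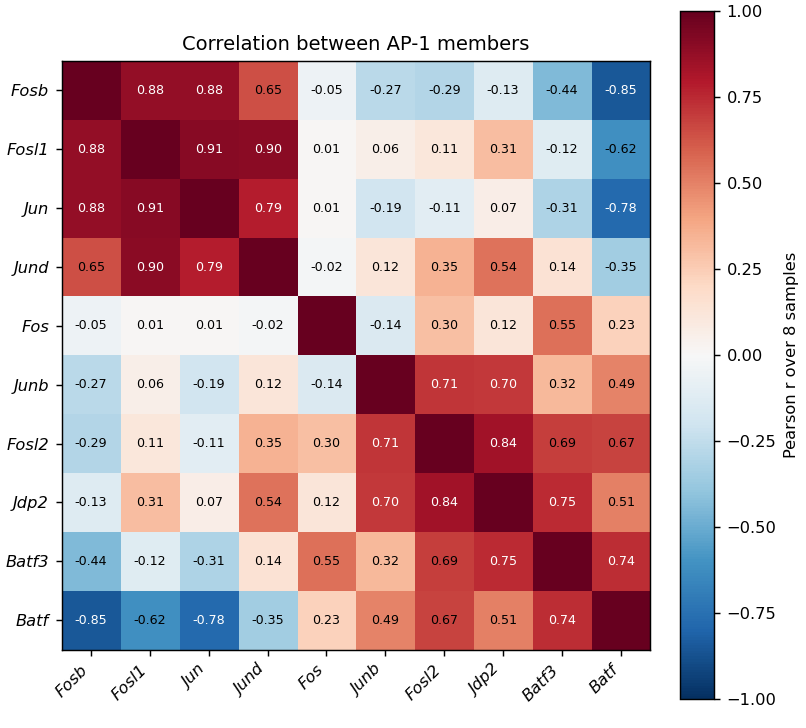
Pearson r between the log2 levels of each pair of members over the 8 samples, from −1 (blue) to 1 (red). Fosb, Fosl1 and Jun form a block at 0.88 to 0.91, and Batf is negative with each of them, at −0.85 with Fosb.

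The markers of other cell types moved with these members, and of 80 relations between members and marker means 12 passed by r and 10 by rho after adjustment. Those p-values are too small for the reason given above, since numbers took most of the variation of these members. For Fosb the correlation with the tumour epithelial marker mean was r = 0.97 (exact permutation p = 4.96e-04, adjusted over the 80 relations 0.0144; rho = 0.95, exact p = 0.00114, adjusted 0.0357), and 0.94 without both samples numbered 3. Its correlation with the macrophage marker mean was r = −0.95 (exact p = 7.19e-04, adjusted 0.0144; rho = −0.93, exact p = 0.00223, adjusted 0.0357), and −0.91 without both samples numbered 4. Jun gave r = 0.87 with the epithelial mean (exact p = 7.19e-04, adjusted 0.0144; rho = 0.90, exact p = 0.00456, adjusted 0.0365), and 0.80 without both samples numbered 3. Fosl1 gave r = 0.87 (exact p = 0.0034, adjusted 0.034; rho = 0.88, exact p = 0.00724, adjusted 0.0527), and 0.63 without those samples, where it was not well above background. The fibroblast marker mean went with the same 3 members, at r = 0.93 for Fosl1 (exact p = 5.21e-04, adjusted 0.0144; rho = 0.93, exact p = 0.00223, adjusted 0.0357), with 0.96 without WT sample 3 and KO sample 4. For Jun it gave r = 0.91 (exact p = 0.00117, adjusted 0.0187; rho = 0.95, exact p = 0.00114, adjusted 0.0357), with 0.93 without those samples, and for Fosb r = 0.91 (exact p = 0.0025, adjusted 0.0286; rho = 0.93, exact p = 0.00223, adjusted 0.0357), with 0.92 without them. Fosb also went with the endothelial mean (r = 0.86, exact p = 0.0068, adjusted 0.0453; rho = 0.90, exact p = 0.00456, adjusted 0.0365; r = 0.83 without WT samples 2 and 4). The remaining relation of these members that passed by r was Jun with the macrophage mean (r = −0.85, exact p = 0.00499, adjusted 0.0372; rho = −0.79, exact p = 0.0279, adjusted 0.14; r = −0.78 without both samples numbered 4). The relations were thus not limited to epithelial markers. The epithelial mean was −0.36 and −0.29 in the WT and KO samples numbered 3 and 2.45 and 2.83 in those numbered 4. The macrophage mean was 4.69 and 4.64 in the former and 3.40 and 3.46 in the latter.

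Batf went the other way, with the macrophage markers. Its correlation was r = 0.89 with the macrophage mean (exact permutation p = 0.00511, adjusted 0.0372; rho = 0.79, exact p = 0.0279, adjusted 0.14), and 0.58 without both samples numbered 4. With the epithelial mean it was r = −0.85 (exact p = 0.00489, adjusted 0.0372; rho = −0.86, exact p = 0.0107, adjusted 0.0714), and −0.93 without both samples numbered 3. Jdp2 went with the type 1 dendritic cell mean, at r = 0.94 (exact p = 0.00141, adjusted 0.0188; rho = 0.90, exact p = 0.00456, adjusted 0.0365), and 0.97 without WT samples 1 and 4. Fosl2 passed with that mean by rank only, at r = 0.83 (exact p = 0.0126, adjusted 0.0775; rho = 0.90, exact p = 0.00456, adjusted 0.0365), and 0.80 without those samples. All these measures share the scale of their array. With normexp background correction the epithelial correlation was 0.81 for Fosb, 0.55 for Jun and 0.46 for Fosl1, and the macrophage correlation −0.48 for Fosb, −0.11 for Jun and 0.79 for Batf. Without scaling the macrophage correlation was −0.67 for Fosb and −0.41 for Jun. The part of other cells in the levels of the members was not tested.

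**Figure D5:**
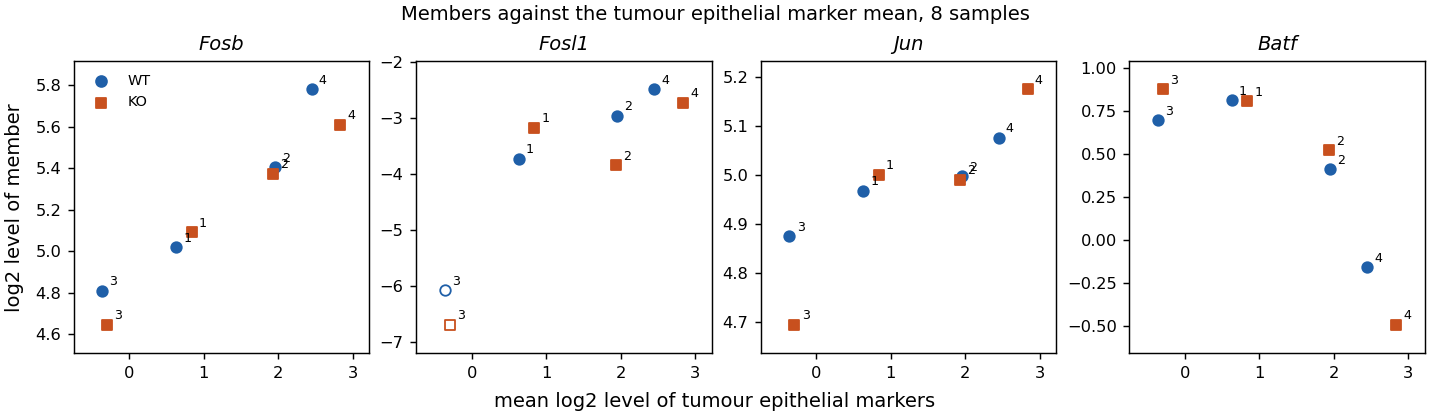
Log2 level of Fosb, Fosl1, Jun and Batf (y axes) against the mean log2 level of the tumour epithelial markers (x axis) in the 8 samples, WT as circles and KO as squares, with replicate numbers beside the points. Open symbols are not well above background. Fosb, Fosl1 and Jun are lowest in the samples numbered 3, where the marker mean is lowest, and Batf is lowest in those numbered 4.

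The genes with levels most like those of 3 members over the 8 samples were sought among 13443 other named genes. For Fos they were Arid1b, Sclt1 and Ammecr1l (r = 0.91, 0.90 and 0.89). Jun was closest to Arfgef3, Lman1l and Pkp2 (r = 0.98, 0.96 and 0.96), and Batf3 to Tex2, Arhgef2 and Nfkbid (r = 0.97, 0.95 and 0.95). These are the highest of many correlations over 8 samples and are given as a description.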

How the data were processed

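Gene expression was measured on 1-colour Agilent mouse arrays, 4 of WT and 4 of KO samples, grouped by sample title. The authors deposited scanner files whose processed intensity was background-subtracted by Agilent Feature Extraction 10.7.1.1, per the file headers (10.5 per the submitters' processing notes), and a table of processed intensity values whose normalization no source used here gives. The headers name build mm9. Of 43379 spots per array that were not controls, outliers were left out and 0 were saturated. Log2 values were averaged over the spots of each probe, and the array's 75th percentile was subtracted. The filter kept 27118 of 41174 probes, those that 4 or more of the 8 arrays read well above background and all 8 gave a value, and the brightest stood for its gene. Probes were named through RefSeq accessions of GRCm38.p6 (25097 matched, 16077 kept their accession). The number of arrays limits the precision.

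Genotypes were compared over all genes with limma 3.58.1 (R 4.3.3). Its two-sided p-values were adjusted by Benjamini-Hochberg. The members, the lists and the rule for naming genes were chosen with earlier results of these data known: all members, up to 4 genes per pathway list and 2 per marker list by smallest p, the sort markers, Atf3, and the 3 genes most like Fos, Jun and Batf3. Krt8, Krt18 and Cd4 were named outside the rule. The F test of the number and the correlations with marker means were chosen after seeing the data. Marker lists of T cells, NK cells, neutrophils, endothelium and fibroblasts entered the correlations.

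Same-numbered WT and KO samples deviated together from their group means. The correlations over genes were 0.30, 0.14, 0.70 and 0.51 for numbers 1 to 4, all over 0.1. On this basis samples of 1 number were compared with each other and blocked as an alternative, since the labels name no shared source. The main limma fit and the exact permutation tests between genotypes were unpaired and took no account of the number. The crossed pairs of numbers 2 and 4 gave 0.15 (WT 2 with KO 4) and 0.14 (WT 4 with KO 2), so that number 2 does not stand apart from them. Alternatives were normexp with an offset of 50 on the median signal, quantile normalization, no scaling, other filters on dim probes, the deposited table, slide and replicate number as blocks, each slide alone, eBayes with trend and robust, each probe on its own, and samples left out.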

Additional observations from a re-analysis of the deposited data

Results flagged for a closer look

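Atf3 in KO sample 1 stood apart from the other KO samples. Its log2 level of 5.51 lay above 4.96, the next highest, by 0.852 of the range of the 4 KO samples, past Dixon's 95% critical value. Of 26 sets of 4 samples examined (each probe of the members and of Atf3, in each genotype) this was the only one past the limit, and chance flags about 1 in 20. KO sample 1 was also the highest for Junb, at 7.06, below that limit.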

How the results depend on the processing

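The count of members called was 0 under all 21 alternatives, and the genes called were 0 except for 1 without KO sample 1. Batf3 stayed negative (−1.16 to −0.48) and Junb positive (0.058 to 0.40) under every alternative run. The count of negative members was 8, and it was 3 with normexp, 2 without scaling, 4 on slide 1 alone, and 4 to 9 with single samples left out. Their median difference was 0.10 with normexp, 0.11 without scaling and 0.017 on slide 1 alone, and ran from −0.12 to 0.069 with single samples left out. With normexp the difference turned positive for Fos (0.12), Fosb (0.10), Jdp2 (0.036), Jun (0.22) and Jund (0.11). Without scaling, which by construction adds 0.17 to every gene, it did so for Batf (0.16), Fos (0.075), Fosb (0.10), Jdp2 (0.086), Jun (0.16) and Jund (0.12). On slide 1 alone Batf (0.052), Fos (0.042), Fosb (0.022) and Jun (0.012) turned positive, and on slide 2 alone Fosl2 (−0.067) and Jund (0.0062) changed sign. Jun was 0.00071 after quantile normalization and 0.041 without both samples numbered 3. With single samples left out the differences ran from −0.21 to 0.29 for Batf, −0.22 to 0.11 for Fosb, −1.05 to 0.57 for Fosl1, −0.089 to 0.24 for Fosl2, −0.24 to 0.0059 for Jdp2, −0.084 to 0.076 for Jun and −0.17 to 0.061 for Jund. Apart from that shift, the cause was not tested.

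The replicate block raised the genes with an unadjusted limma p under 0.05 from 700 to 1580, Batf3 among them, and changed no call. In that blocked limma fit Batf3 differed by −0.83 with an adjusted p of 0.634. Differences between numbers were called for 1511 genes, and for 357 with normexp, 2703 with the strictest filter, 427 with no filter, and 0 to 669 with single samples left out. Members called there were 2, and 0 with normexp, 1 without scaling, 4 in the deposited table, 0 with no filter and 0 to 0 with single samples left out. Fos and Jun were not tested in the deposited table, where each has an empty cell. Signal over background limits Fosl1 alone among the members, which the strictest filter removes.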

Other observations

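In the order of genes given by RefSeq, Batf3 and Atf3 lie near each other on chromosome 1, with 4 genes listed between them, none of which had a probe named here. Batf3 differed by −0.83 and Atf3 by 0.25, and neither passed (limma adjusted p = 0.9999 for each).

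Markers of lymphoid cells, in which Batf is known to be induced on activation, had mostly positive differences: 11 of 13 T cell genes with a median of 0.51 and 9 of 10 NK cell genes with a median of 0.59, and 0 passed over all genes. The mean of each of these lists was higher in KO within 4 of 4 numbers. How often single genes or list means are higher in 4 of 4 numbers was not counted. The T cell gene with the smallest p, Cd6, went the other way, with a difference of −0.62 and a standard error of 0.25. Cd4 was the other negative T cell gene, at −0.44 with a standard error of 0.29. Lat, with the next smallest p after Cd6, was positive, at 0.65 with a standard error of 0.31. Some of these markers were dim. The NK cell gene Klrb1c, at −4.74 ± 0.85 in WT and −3.43 ± 1.34 in KO, lay near the level of Fosl1. Another NK cell gene, Gzma, lay well above it, at 1.49 ± 1.23 and 2.70 ± 1.00 (SD, n = 4 each). Batf itself correlated at r = 0.0059 with the T cell mean and 0.16 with the NK cell mean. Endothelial markers had 9 of 10 negative, with a median of −0.80, a mean lower in KO within 4 of 4 numbers, and 0 passed. Of single genes, 9.71% were lower in KO within 4 of 4 numbers, and no such share was computed for list means. Macrophage markers had 10 of 14 negative (median −0.037), neutrophil markers 6 of 9 negative (−0.19), fibroblast markers 8 of 10 positive (0.15) and tumour epithelial markers 8 of 12 positive (0.045), and 0 of each passed.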
